A study of Mus musculus with 5 samples.

Results

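The insulin-like growth factor (IGF) system was examined in mammary glands of Nfib-null and wild-type mice through 10 genes, taken by symbol from the deposited table of 22609 genes: the ligands Igf1 and Igf2, the receptors Igf1r and Igf2r, and the binding protein genes Igfbp2 to Igfbp7. All 10 were listed in the table and all passed the minimum of a mean of 1 RPKM over the 5 libraries. The groups were 3 libraries from Nfib-null (KO) mice and 2 libraries from wild-type mice, both of an outbred strain. Every gland was collected within less than 12 hours of delivery on the day of parturition, without its lymph nodes, and poly(A) RNA of the whole tissue was sequenced. Nfib encodes nuclear factor I/B, a transcription factor, and the series title places it beside STAT5, which carries the prolactin signal, in the gene expression that pregnancy induces. The labels do not state the promoter or cell type in which the gene was deleted, and the column name NfibFF-WC is not spelled out there. That column was taken as the Nfib-null group because it is the other one of 2 columns.

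IGF1 and IGF2 are secreted growth factors that act through the IGF1 receptor, a tyrosine kinase closely related to the insulin receptor. The IGF2 receptor, which is also the cation-independent mannose 6-phosphate receptor, removes IGF2 from the cell surface and carries lysosomal enzymes. Binding proteins hold IGFs in the circulation and in the tissue and can block or prolong their action. In the mammary gland of rodents, stromal IGF1 mediates the effect of growth hormone on duct growth, and IGFBP5 is known for its strong increase when milk secretion stops and for its repression by prolactin.

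Each gene had a single value per group in RPKM, a read density per kilobase of gene adjusted for sequencing depth, so differences carry no replicate error and no test, and they are described by size. In whole-gland RNA, fewer cells of a type and less RNA per cell cannot be told apart. Levels are RPKM as deposited, which are per length. They are set side by side between genes, but the gene lengths used are not given, so such comparisons are approximate. Differences are Nfib-null minus wild type on the scale of log2(scaled RPKM + 1) after median-ratio scaling of the columns, and "called" means at least 2-fold in either direction, a log2 difference of 1 or more. Of 12511 genes kept, 6.95% were called higher and 5.97% lower in Nfib-null glands, with a median difference of 0. Read depth was estimated from steps among low values, searched only within a range set beforehand and with as many steps as libraries. The estimates were about 22700000, 27200000 and 33300000 reads for the Nfib-null libraries and 14900000 and 17500000 for the wild type. Their range and number were thus fixed by the method, so they are not a measurement of depth. The targeted gene Nfib stood at 55.3 RPKM in Nfib-null glands and 33.7 RPKM in wild-type glands (log2 difference 0.30), and a whole-gene value does not check the deletion of part of a gene. The 8 milk protein genes listed as markers held 26.2% of the summed RPKM in Nfib-null glands and 61.8% in the wild type.

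Relative to the median gene, 8 of the 10 IGF genes had more mRNA in the Nfib-null column. Only Igfbp5 (0.98) and Igfbp6 (0.21) still did when scaled to the median of the fibroblast and matrix genes. On the median-ratio scale, Igfbp6 (1.70) lay within the range of those genes (1.02 to 1.96). Igfbp5 differed most. Of the 10 members, 5 were called higher (Igf1, Igf2, Igfbp4, Igfbp5 and Igfbp6) against 6.95% of all genes kept, and 0 were called lower against 5.97%. The median difference of the members was 0.97, against 0 over all genes kept. Scaled to fibroblast and matrix genes, the median of the members was −0.38 and that of all genes −1.33. The levels lay between 3.53 RPKM for Igf1r and 996 RPKM for Igfbp5 in the Nfib-null column, and between 1.51 RPKM for Igf1r and 129.9 RPKM for Igfbp5 in the wild type.

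**Figure D1:**
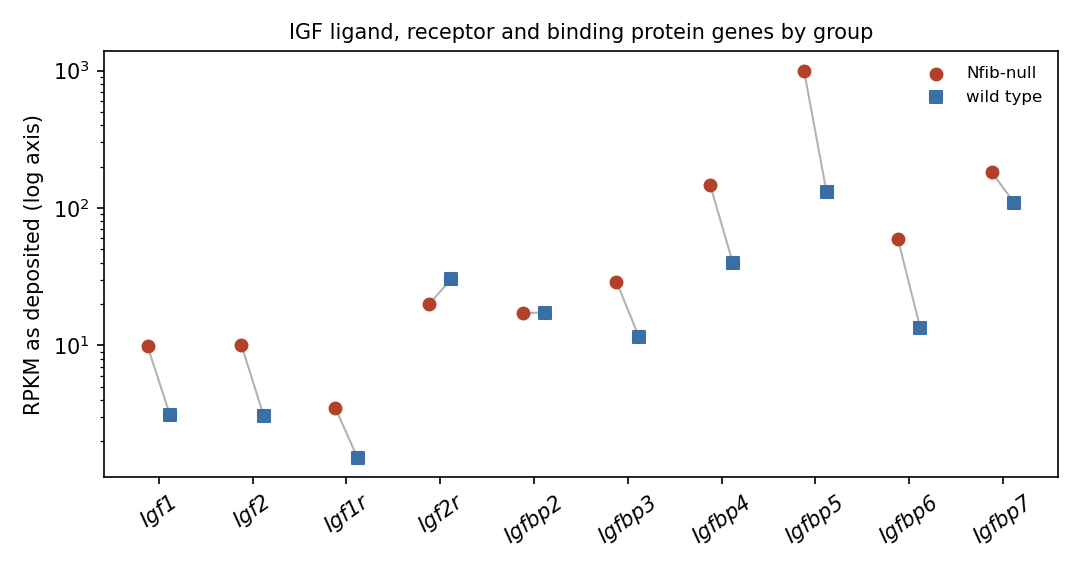
RPKM as deposited (vertical log axis) of the 10 IGF genes, with a red circle for the Nfib-null group and a blue square for the wild type, 1 group value each and no replicate error. Igfbp5 reaches 996 RPKM in the Nfib-null group against 129.9 in the wild type, Igfbp2 stands at nearly the same level in both, and Igf2r has the lower value in the Nfib-null group.

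The 2 ligand genes differed by almost the same amount. Igf1 stood at 9.85 RPKM in Nfib-null glands and 3.11 RPKM in wild-type glands, a ratio of 3.17 as deposited and a log2 difference of 1.06 after scaling. Igf2, the ligand best known for fetal growth, stood at 10.1 RPKM in Nfib-null glands and 3.05 RPKM in wild-type glands (ratio 3.31, log2 difference 1.11). The ligands therefore kept close to equal levels within a column, with 0.977 times as much Igf1 as Igf2 in the Nfib-null column and 1.02 times in the wild type. Of all genes kept, 93.8% had a smaller difference than Igf1 and 94.4% a smaller one than Igf2. Both ligands lay close to the 2-fold limit: with a pseudocount of 5 the differences were 0.66 for Igf1 and 0.69 for Igf2, and with quantile normalization Igf1 was at 0.97. Scaled to fibroblast and matrix genes, both turned below 0 (−0.25 for Igf1 and −0.20 for Igf2). In the GENCODE annotation, 64.5% of the exonic bases of Igf2 are shared with other annotated genes and 0% of those of Igf1. How reads of shared exons were assigned in the deposited values is not given in the labels.

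The 2 receptor genes lay on opposite sides of 0 on the median-ratio scale, although Igf1r turned below 0 when scaled to fibroblast and matrix genes (−0.51) or white adipocyte genes (−0.78). Igf1r, the signalling receptor, was the member of lowest level in both columns, at 3.53 RPKM in Nfib-null glands and 1.51 RPKM in wild-type glands (log2 difference 0.57, within 2-fold). Igf2r, the receptor that clears IGF2, stood at 19.9 RPKM in Nfib-null glands and 30.5 RPKM in wild-type glands (log2 difference −0.99), just inside the limit. It passed the limit with a pseudocount of 0.1 (−1.03) and without the filter on low values (−1.01). Igf2r was below 0 under all 7 scalings tried, between −2.83 and −0.60. Scaling to luminal, fibroblast and matrix or white adipocyte genes moved all genes down, to medians of −0.61, −1.33 and −1.66. These scalings could therefore not raise a gene that was lower on the median-ratio scale. Only 6.05% of all genes kept had a more negative difference than Igf2r.

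Ratios within a column are free of the scaling factor between the columns. Igf2r had 1.97 times the level of its ligand Igf2 in the Nfib-null column and 10.02 times in the wild type. It had 5.63 times the level of Igf1r in the Nfib-null column and 20.2 times in the wild type. The level of Igf1 per Igf1r differed less, at 2.79 in the Nfib-null column and 2.06 in the wild type. The insulin receptor gene Insr, whose product can pair with the IGF1 receptor, had 3.65 times the level of Igf1r in the Nfib-null column and 5.81 times in the wild type. Insr itself was within 2-fold (12.9 RPKM in Nfib-null glands and 8.78 RPKM in wild-type glands).

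The binding protein genes held nearly all of the IGF mRNA counted here. The summed level of the binding protein genes, as deposited, was 1430 RPKM in Nfib-null glands and 321 RPKM in wild-type glands. Of the 6, 3 were called higher against 6.95% of all genes kept, and 0 lower against 5.97%. Igfbp5 accounted for most of the difference between these sums. It stood at 996 RPKM in Nfib-null glands and 129.9 RPKM in wild-type glands, a ratio of 7.67 as deposited and a log2 difference of 2.52. Among all genes kept, 99.8% had a smaller difference than Igfbp5, and 99.7% had a lower level in the Nfib-null column. It was above 0 under all 7 scalings, between 0.59 and 2.93, and passed 2-fold under 5 of them, with 0.98 when scaled to fibroblast and matrix genes and 0.59 when scaled to white adipocyte genes.

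Igfbp6 and Igfbp4 were the other binding protein genes called higher. Igfbp6, whose product prefers IGF2 over IGF1, stood at 59.7 RPKM in Nfib-null glands and 13.3 RPKM in wild-type glands (log2 difference 1.70). Igfbp4, generally an inhibitor of IGF action, stood at 146 RPKM in Nfib-null glands and 40.0 RPKM in wild-type glands (1.44). Igfbp6 passed 2-fold under 5 of 7 scalings and Igfbp4 under 4. Both turned below 0 when scaled to white adipocyte genes (−0.17 for Igfbp6 and −0.47 for Igfbp4), and Igfbp4 also when scaled to fibroblast and matrix genes (−0.09).

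The other 3 binding protein genes stayed within 2-fold. Igfbp3, the main IGF carrier in serum, stood at 29.1 RPKM in Nfib-null glands and 11.5 RPKM in wild-type glands (log2 difference 0.88), and it passed 2-fold with values as deposited (1.27) and with equal sums (1.04) but turned below 0 when scaled to fibroblast and matrix genes (−0.58). Igfbp7, a distant relative that binds IGFs weakly, stood at 182 RPKM in Nfib-null glands and 109.5 RPKM in wild-type glands (0.32), a difference that was −0.39 when scaled to luminal genes. In the GENCODE annotation, 7.03% of its exonic bases lie under exons of Polr2b on the opposite strand. Igfbp2 stood at 17.2 RPKM in Nfib-null glands and 17.3 RPKM in wild-type glands (−0.40). The difference of Igfbp2 was below 0 under all 7 scalings, but as deposited it was −0.01, so that its negative value comes with the scaling of the columns.

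**Figure D2:**
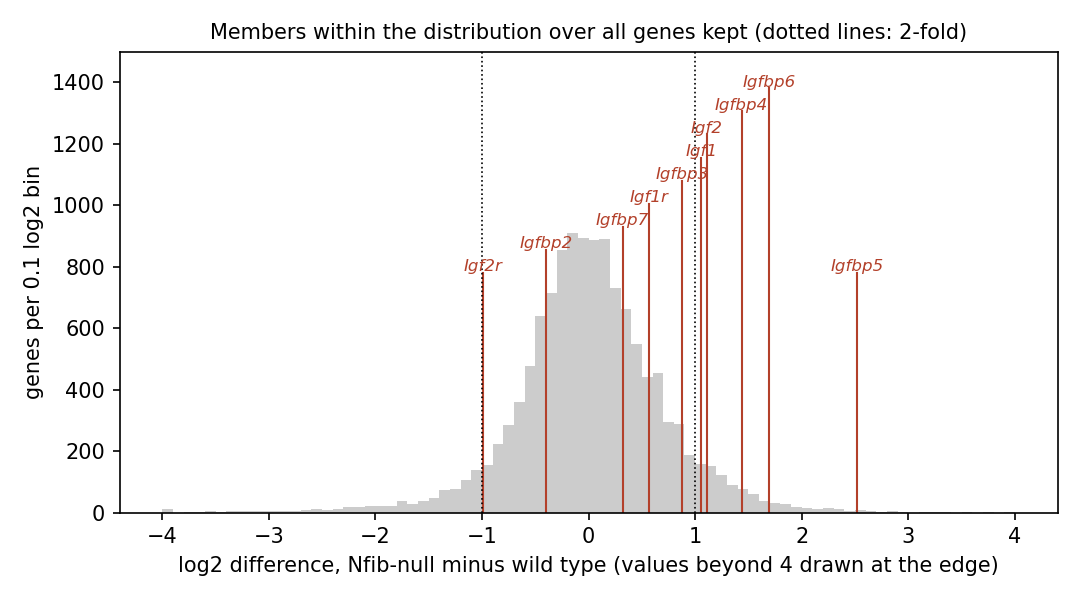
Histogram of the log2 difference, Nfib-null minus wild type, over the 12511 genes kept (bins of 0.1, genes per bin on the vertical axis), with a red line for each of the 10 IGF genes at its difference; line height only spaces the names. Igfbp5 stands alone at 2.52, Igf2r lies at −0.99, and 5 members lie beyond the right dotted line of 2-fold on this median-ratio scale.

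The make-up of binding protein mRNA thus differed as well as its deposited amount. Unlike the shares, the amount depends on the scaling of the columns. Summed fibroblast and matrix markers (1800 RPKM in Nfib-null glands, 491 RPKM in wild-type glands) differed by a similar factor. So did summed white adipocyte markers (10004 RPKM in Nfib-null glands, 2049 RPKM in wild-type glands). Igfbp5 made up 69.7% of the summed RPKM of the 6 genes in the Nfib-null column and 40.4% in the wild type. Igfbp7 made up 12.7% in the Nfib-null column and 34.1% in the wild type. The share of Igfbp2 was 1.20% in the Nfib-null column and 5.39% in the wild type, and that of Igfbp3 was 2.04% in the Nfib-null column and 3.58% in the wild type. Shares of Igfbp4 (10.2% in the Nfib-null column, 12.4% in the wild type) and Igfbp6 (4.18% in the Nfib-null column, 4.13% in the wild type) were close. Set against the ligands, the summed binding protein level was 71.7 times the summed Igf1 and Igf2 level in the Nfib-null column and 52.2 times in the wild type. Without Igfbp5 the order turned round, with 21.8 times in the Nfib-null column and 31.1 times in the wild type.

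**Figure D3:**
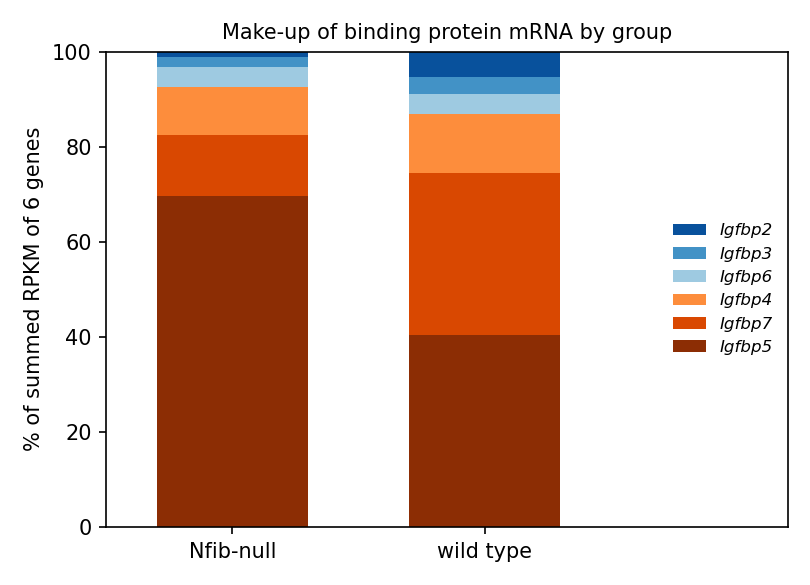
Stacked bars of the share (%) of each binding protein gene in the summed RPKM of the 6 genes, for the Nfib-null group on the left and the wild type on the right. Igfbp5 fills 69.7% of the Nfib-null bar and 40.4% of the wild-type bar, and Igfbp7 fills 12.7% of the Nfib-null bar and 34.1% of the wild-type bar.

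By order of level, Igfbp5, Igfbp7 and Igfbp4 took the first 3 places in both columns, and Igf1r the last. Behind them the Nfib-null column ran Igfbp6, Igfbp3, Igf2r, Igfbp2, Igf2 and Igf1, whereas the wild type ran Igf2r, Igfbp2, Igfbp6, Igfbp3, Igf1 and Igf2. Thus 4 of the 10 members held the same rank in both columns. With 1 value per group, it was not tested which neighbours in these orders differ beyond the spread between animals.

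The region upstream of the start site was read for members with RefSeq sequence of build GRCm38.p6, because nuclear factor I and STAT5 are the factors named by the series. It is shown for the 3 binding protein genes called higher and for Igfbp7, which was not. Igfbp2 and Igfbp3, also not called, are not shown. All 10 members matched the RefSeq table, with 14 start sites. Each sequence below is the 250 bases before the start, 5′ to 3′ on the strand of the gene, in lower case, and capitals mark TTGGC or its reverse complement, which is a single arm of the palindromic NFI motif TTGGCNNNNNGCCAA. The positions are chr1:72874866-72875115 (minus strand) for Igfbp5, chr11:99040994-99041243 (plus strand) for Igfbp4, chr15:102143936-102144185 (plus strand) for Igfbp6 and chr5:77408046-77408295 (minus strand) for Igfbp7.
Igfbp5: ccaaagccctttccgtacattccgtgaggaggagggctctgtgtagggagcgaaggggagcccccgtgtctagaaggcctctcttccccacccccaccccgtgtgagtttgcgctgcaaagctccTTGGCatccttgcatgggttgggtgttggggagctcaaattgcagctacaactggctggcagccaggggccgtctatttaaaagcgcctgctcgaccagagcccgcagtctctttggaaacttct
Igfbp4: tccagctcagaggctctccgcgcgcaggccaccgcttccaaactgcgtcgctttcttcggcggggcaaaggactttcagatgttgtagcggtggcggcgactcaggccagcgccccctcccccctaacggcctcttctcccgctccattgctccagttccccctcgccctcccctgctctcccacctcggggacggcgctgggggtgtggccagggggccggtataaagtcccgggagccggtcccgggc
Igfbp6: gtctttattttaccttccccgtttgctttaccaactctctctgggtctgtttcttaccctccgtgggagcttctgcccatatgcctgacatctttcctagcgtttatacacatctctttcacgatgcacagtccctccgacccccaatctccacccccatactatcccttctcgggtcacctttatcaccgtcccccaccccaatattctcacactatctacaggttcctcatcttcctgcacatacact
Igfbp7: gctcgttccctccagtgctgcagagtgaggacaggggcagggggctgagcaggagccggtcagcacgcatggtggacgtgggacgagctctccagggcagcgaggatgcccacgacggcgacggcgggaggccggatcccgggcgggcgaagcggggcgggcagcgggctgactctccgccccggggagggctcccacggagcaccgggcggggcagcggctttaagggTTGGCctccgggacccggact

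The single NFI arm was found on either strand in 2 of the 14 member regions, once in Igfbp5, with its first base 125 bases before the start, and once in Igfbp7, 21 bases before it. Of all 32851 regions of the same length in the table, 41.5% held it. The whole palindrome was in 0 of the 14 member regions and in 0.0365% of all regions. The STAT motif TTCNNNGAA was in 0 of the 14 and in 7.02% of all regions. The letters TATAAA were found in Igfbp4 and Igfbp6 and in 12.4% of all regions, all motifs being searched on both strands. These are matches of letters in a short window on a build other than the mm9 of the deposited values. The NFI arm was present in Igfbp5, called higher, and in Igfbp7, not called. It was absent from Igfbp4 and Igfbp6, called higher, and from Igfbp2 and Igfbp3, not called.

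Other genes of the IGF pathway were examined in 5 lists of 52 genes, of which 40 passed the minimum. Of these, 5 were called higher and 5 lower, 12.5% in each direction, against 6.95% and 5.97% of all genes kept. The median difference of the 40 was 0.13. Of the 40, 23 were above 0, as were 6256 of the 12511 genes kept.

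Among the other carriers, stabilisers and proteases of IGF complexes, 5 of 10 passed the minimum. Of these 5, 1 was called higher against 6.95% of all genes kept, and 2 lower against 5.97%. Igfals, the acid-labile subunit that completes the serum complex with IGFBP3, stood at 59.0 RPKM in Nfib-null glands and 131 RPKM in wild-type glands (log2 difference −1.55). It was called lower under all 7 scalings, though those to luminal, fibroblast or adipocyte genes moved all genes down. With values as deposited it stood at −1.14, its highest value. Its partner Igfbp3 was at 0.88 on the median-ratio scale. The exons of Igfals share no base with other genes in the GENCODE annotation. Stc2, a stanniocalcin that inhibits the IGFBP protease PAPP-A, stood at 5.59 RPKM in Nfib-null glands and 12.8 RPKM in wild-type glands (−1.43). Htra1, a secreted serine protease that can cleave IGFBPs, stood at 55.5 RPKM in Nfib-null glands and 16.4 RPKM in wild-type glands (1.30), was within 2-fold with luminal scaling (0.61), and turned below 0 when scaled to fibroblast and matrix genes (−0.19). Pappa, the gene of PAPP-A itself, was below the minimum (0.352 RPKM in Nfib-null glands and 0.186 RPKM in wild-type glands), and Igfbp1 was listed at 0 in both columns.

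Of 7 genes for secreted proteins with an IGFBP-like domain, 5 passed the minimum. Of these 5, 3 were called higher against 6.95% of all genes kept, and 0 lower against 5.97%. Cyr61, a matricellular protein of the CCN family, stood at 30.5 RPKM in Nfib-null glands and 3.74 RPKM in wild-type glands (log2 difference 2.37), close to the difference of Igfbp5. Its relative Ctgf stood at 38.2 RPKM in Nfib-null glands and 8.53 RPKM in wild-type glands (1.65). Wisp2, another CCN gene, stood at 4.51 RPKM in Nfib-null glands and 0.809 RPKM in wild-type glands (1.34). Ctgf turned below 0 when scaled to white adipocyte genes (−0.18). All 3 came within 2-fold with fibroblast and matrix or adipocyte scaling, Cyr61 at 0.98 and 0.62 and Wisp2 at 0.34 and 0.09. Luminal scaling did the same for Ctgf (0.98) and Wisp2 (0.88), and a pseudocount of 5 for Wisp2 (0.59).

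Upstream of the IGFs, the growth hormone receptor gene Ghr was within 2-fold at 84.6 RPKM in Nfib-null glands and 35.9 RPKM in wild-type glands (log2 difference 0.81). The prolactin receptor gene Prlr was called lower, at 9.13 RPKM in Nfib-null glands and 18.0 RPKM in wild-type glands (−1.29). Of the 3 kept genes of this receptor list, 1 was called lower, against 5.97% of all genes kept. Prlr passed 2-fold under 6 of 7 scalings, among them those to luminal, fibroblast or adipocyte genes, which moved all genes down. It stood at −0.91 with values as deposited and at −0.996 with a pseudocount of 5.

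Of 26 kept genes of intracellular IGF and insulin signalling, 24 lay within 2-fold, 2 were called lower (7.69%) and 0 higher, and the median was 0.01. These shares were near those of all genes kept, of which 87.1% lay within 2-fold and 5.97% were called lower. The lower ones were Akt1, the kinase that carries the signal downstream of phosphoinositide 3-kinase, at 101 RPKM in Nfib-null glands and 194 RPKM in wild-type glands (log2 difference −1.34), and Rheb, the GTPase that activates mTORC1, at 48.0 RPKM in Nfib-null glands and 77.7 RPKM in wild-type glands (−1.09). With values as deposited both came within 2-fold (−0.93 for Akt1 and −0.68 for Rheb), and Rheb also with quantile normalization (−0.87) and equal sums (−0.92). The paralog Akt2 was within 2-fold, at 47.7 RPKM in Nfib-null glands and 18.6 RPKM in wild-type glands (0.91). The substrates that dock to the receptor, Irs1 (20.6 RPKM in Nfib-null glands and 18.1 RPKM in wild-type glands) and Irs2 (24.1 RPKM in Nfib-null glands and 20.04 RPKM in wild-type glands), were also within 2-fold. Grb10, an adaptor that dampens signalling of the IGF1 and insulin receptors, lay just inside the limit at 21.5 RPKM in Nfib-null glands and 7.93 RPKM in wild-type glands (0.95).

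**Figure D4:**
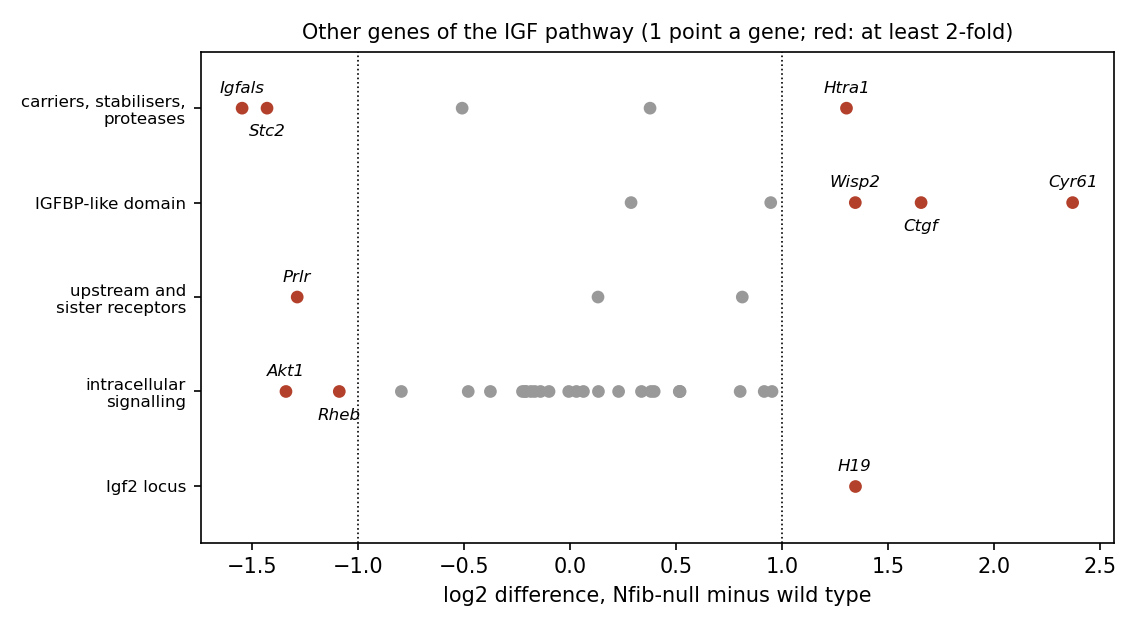
Log2 difference, Nfib-null minus wild type (horizontal axis), of the 40 kept genes of 5 IGF pathway lists, 1 point a gene and a row a list, with genes at least 2-fold different in red and named. Of the intracellular signalling genes, Akt1 and Rheb lie beyond the dotted 2-fold lines and the other 24 of 26 between them, where 87.1% of all genes kept lie. Cyr61 lies farthest to the right at 2.37 and Igfals farthest to the left at −1.55.

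Because whole glands were sequenced, markers of the cell types in the tissue are given beside these differences. All 10 fibroblast and matrix markers were called higher in the Nfib-null column (median difference 1.496, summed level 1800 RPKM in Nfib-null glands and 491 RPKM in wild-type glands), as were all 8 white adipocyte markers (median 1.91, sums 10004 RPKM in Nfib-null glands and 2049 RPKM in wild-type glands). Of 8 macrophage markers 7 were called higher (median 1.30, sums 446 RPKM in Nfib-null glands and 130.4 RPKM in wild-type glands). Luminal epithelial markers had a median of 0.71, with 3 of 10 called higher (sums 1845 RPKM in Nfib-null glands and 881 RPKM in wild-type glands). None of the 8 myoepithelial markers was called (median 0.15, sums 1100 RPKM in Nfib-null glands and 669 RPKM in wild-type glands). Nor was any of the 8 endothelial markers (median 0.11, sums 199.5 RPKM in Nfib-null glands and 142 RPKM in wild-type glands). Of all genes kept, 6.95% were called higher, 5.97% lower and 87.1% lay within 2-fold, so that none called among 8 is near the share of all genes. All 8 milk protein markers were called lower (median −2.97), as were 5 of 7 lymphocyte markers (median −1.19, sums 9.21 RPKM in Nfib-null glands and 21.8 RPKM in wild-type glands). None of the markers was at 0 in either column.

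Igfbp5 alone of the 10 members differed by more than the median of the adipocyte markers, and Igfbp5 and Igfbp6 by more than that of the fibroblast and matrix markers. Igfbp4 joined these when the macrophage median was the mark. Igf1, Igf2 and Igfbp3 lay between the luminal and the macrophage medians, and Igf1r and Igfbp7 between the myoepithelial and the luminal ones, while Igf2r and Igfbp2 lay below those of all lists except the milk protein and lymphocyte ones. The part of these cell types in the differences of the IGF genes was not tested.

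**Figure D5:**
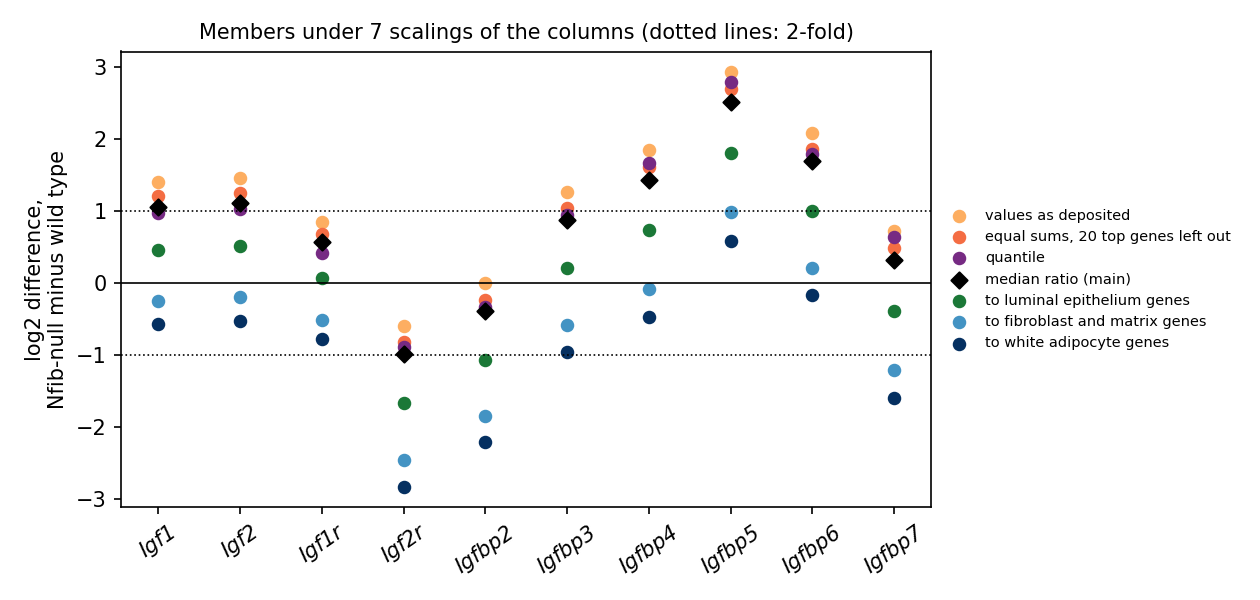
Log2 difference, Nfib-null minus wild type (vertical axis), of the 10 IGF genes under 7 ways of scaling the columns, 1 colour a scaling and a black diamond for the median-ratio scaling. Igfbp5 stays above 0 throughout (0.59 to 2.93), Igf2r stays below 0 (−2.83 to −0.60), and the ligands Igf1 and Igf2 change sign when fibroblast or adipocyte genes are the base.

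With the read depths estimated above, whose range and number were set beforehand, counting error alone came out small for most members. A rank-based normalization, if one was used, would change these read counts and errors. With the shortest coding transcript of each gene and the lowest depth step, Igfbp5 would rest on about 407379 reads in the Nfib-null group and 23251 in the wild type, and the standard error of its log2 ratio from counting would be 0.01. On these low estimates the least well covered member was Igf2, with about 258 reads in the Nfib-null group and 34 in the wild type. Its counting error was 0.26, followed by Igf1 with 0.22. Coding transcripts ran from 376 to 4722 bp for Igf2 and from 510 to 7052 bp for Igf1, and longer ones would give smaller errors. On these low estimates, the distances of Igf1, Igf2 and Igf2r from the 2-fold limit were within these errors. The errors rest on preset depths and the shortest transcripts, and on ratios without the pseudocount used for the differences. They therefore cannot decide on which side of the limit these genes lie.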

How the data were processed

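Per the labels' protocols, poly(A) RNA of whole mouse mammary glands was made into TruSeq libraries and read on a HiSeq instrument. Named in the submitters' processing notes, without versions, are CASAVA, TopHat and the build mm9. How reads were counted, on which annotation, over which denominator and whether by strand is not given in the sources used here. Values were deposited by the authors as RPKM, per the file headers, in 2 columns of 22609 genes with 1 value per gene and group. Wap and Glycam1 hold exactly the same wild-type value, while none of the 10 members shares its value with another gene in either column.

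A mean of 1 RPKM or more over the 5 libraries was required, which 12511 genes met and 10098 did not. The Nfib-null column was divided by 1.153 and the wild type by 0.867, which removes the median log2 ratio of 0.41. Differences use a pseudocount of 1 and understate changes of low genes. limma, planned for values per library, could not be run on group values. The alternatives were 6 other scalings, pseudocounts of 0.1 and 5, no filter or a minimum of 5 RPKM, and fold limits of 1.5 and 4. Depth steps, transcript lengths and exon overlap used GENCODE vM21 (GRCm38). Only the depth steps were limited to genes with a single transcript. The steps were searched within a preset range of depth, with as many steps as libraries, so their range and number were set. A rank-based normalization, if one was used, would change such steps. The script was tested on simulated data. Python 3.11.15, numpy 2.4.6, pandas 2.3.3 and matplotlib 3.10.9 were used.

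Members and lists were chosen with earlier results of these data known. All members are named, as is every pathway gene called at 2-fold, and others only with their value within 2-fold or below the minimum. Coordinates are given only for RefSeq promoters of GRCm38.p6, since the deposited values use another build.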

Additional observations from a re-analysis of the deposited data

How the results depend on the processing

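No value per library was at hand, so leaving out each library in turn could not be run. No paired analysis was possible because the columns carry no replicate. The median of all genes moved by 0.15 with equal sums without the 20 top genes, 0.35 with values as deposited, −0.61 scaled to luminal genes, −1.33 to fibroblast and matrix genes and −1.66 to adipocyte genes, and of called genes 68.3%, 82.99%, 6.65%, 0.489% and 0.217% were then higher, against 53.8% with the median ratio. Quantile normalization changed no count by more than 1.5 times.

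The number of members called higher (5) was 2 scaled to luminal genes (Igfbp5 and Igfbp6), 0 to fibroblast and 0 to adipocyte genes, 3 with a pseudocount of 5 (Igfbp4, Igfbp5 and Igfbp6) and 1 at 4-fold (Igfbp5). The number called lower (0) was 2 with luminal scaling (Igf2r and Igfbp2), 3 with fibroblast and 3 with adipocyte scaling (Igfbp7 in addition), and 1 (Igf2r) with a pseudocount of 0.1, no filter or a limit of 1.5-fold. The median of the members (0.97) was 1.12 with equal sums, 1.33 as deposited, 1.08 with a pseudocount of 0.1, 1.11 at a minimum of 5 RPKM, which drops Igf1r, 0.67 with a pseudocount of 5, 0.33 with luminal scaling, and −0.38 and −0.68 with fibroblast and adipocyte scaling. Pathway genes called higher (5) numbered 8 with equal sums, 10 as deposited, 1 with luminal, 0 with fibroblast and 0 with adipocyte scaling, 3 with a pseudocount of 5, 10 at 1.5-fold and 1 at 4-fold. Those called lower (5) numbered 2 as deposited, 8, 27 and 31 with luminal, fibroblast and adipocyte scaling, and 0 at 4-fold. Of all 12511 genes kept, 3117, 8548 and 10095 were called lower with luminal, fibroblast and adipocyte scaling. Called higher with these scalings were 222, 42 and 22 of all genes kept. With equal sums 1177 were called higher, as deposited 1800, with a pseudocount of 5 346, at 1.5-fold 2145 and at 4-fold 91. Called lower were 369 as deposited, 942 with a pseudocount of 0.1, 1833 at 1.5-fold and 154 at 4-fold. Without the filter, 800 of 22609 genes were called lower. The member and pathway counts are to be read beside these totals.

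Called genes that turned below 0 did so only with fibroblast or adipocyte scaling. With fibroblast scaling these were Igf1 (−0.25), Igf2 (−0.20), Igfbp4 (−0.0885) and Htra1 (−0.19). With adipocyte scaling these were Igf1 (−0.58), Igf2 (−0.53), Igfbp4 (−0.47), Igfbp6 (−0.17), Htra1 (−0.57), H19 (−0.23) and Ctgf (−0.18). This follows from the base, whose genes stood higher in the Nfib-null column than these.

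Shares of the binding proteins depend on which genes are summed. Without Igfbp7, the difference in share between the columns, in percentage points, was 18.5 for Igfbp5 (29.2 over all 6), −6.79 for Igfbp2, −3.09 for Igfbp3, −7.18 for Igfbp4 and −1.47 for Igfbp6 (0.05 over all 6). Without Igfbp5 it was 0.71 for Igfbp3, 12.8 for Igfbp4 and 6.84 for Igfbp6.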

Other observations

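Genes that adjoin a member in the genome, paired after their values had been seen, showed unlike and like differences. In the RefSeq gene table, 0 other protein-coding genes start between Igfbp2 and Igfbp5. Igfbp5 had 57.8 times the level of Igfbp2 in the Nfib-null column and 7.50 times in the wild type. Igfbp1 and Igfbp3 adjoin in the same way, and Igfbp1 was listed at 0 in both columns whereas Igfbp3 was detected in both. Igf2 and H19, an imprinted noncoding RNA gene beside it, had similar levels: H19 stood at 8.92 RPKM in Nfib-null glands and 2.12 RPKM in wild-type glands, a log2 difference of 1.34 that turned to −0.23 when scaled to white adipocyte genes. The level of Igf2 per H19 was 1.13 in the Nfib-null column and 1.44 in the wild type.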
